A study of Mus musculus with 8 samples.

Results

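Ribosome biogenesis genes were measured in sorted bone marrow LSK cells, a fraction defined by c-Kit and Sca-1 and by the absence of lineage markers, which holds mouse haematopoietic stem and multipotent progenitor cells. The set was 45 genes, taken by gene symbol from a table of 54532 gene identifiers, and all 45 were present and passed the filter on low counts. It was split by role into 8 RNA polymerase I subunits and initiation factors, 3 box C/D and 4 box H/ACA core proteins, 6 abundant nucleolar proteins, 17 small-subunit factors and 7 large-subunit factors. One group was 3 libraries from AML1/ETO mice (genotype Runx1-Runx1t1), and the other was 5 libraries from wild-type control mice. Both were on the C57BL/6 strain, and both received poly(I:C), which mimics double-stranded viral RNA, in 4 injections of 5 mg/kg on alternate days, with sorting 4 weeks later. AML1/ETO is the fusion of the transcription factor RUNX1 to the co-repressor RUNX1T1 that arises in acute myeloid leukaemia with the t(8;21) translocation. How expression of the fusion was driven, the age and sex of the mice, and whether each library came from a separate animal are not stated in the labels. The p-values therefore rest on the spread among libraries alone, part of which may be technical.

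Ribosomes are built in the nucleolus. RNA polymerase I transcribes the ribosomal DNA into a single long precursor, and small nucleolar ribonucleoproteins (snoRNPs) of the box C/D and box H/ACA kinds methylate and pseudouridylate it. The small-subunit processome and later factors fold and cut the part that becomes the 40S subunit, and a separate set of factors assembles the 60S subunit. Haematopoietic stem cells are known for a low and tightly held rate of protein synthesis, and inherited defects of several ribosome biogenesis genes cause bone marrow failure. The libraries were of mRNA type, so transcripts of the factors were measured here and ribosomal RNA was not.

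The promoters of 6 members are shown as examples, and all 6 had a fitted log2 fold change below 0. They do not stand for the members as a set. In the 250 bases shown, 3 of the 40 member promoters found hold CACGTG. Ncl and Dkc1 were lower in AML1/ETO cells and hold none of the 3 motifs searched. Nolc1 and Utp15 were lower and hold CCGGAA. Rrn3 (log2 fold change −0.44) and Nop2 (−0.14) did not pass the test and hold CACGTG, and Nop2 also holds CCGGAA. Each is the 250 bases before the RefSeq start (GRCm38.p6), written 5′ to 3′ on the gene's strand, and capitals mark a motif on either strand. For Utp15 the GENCODE start, at 98263041, lies inside the window. The bases nearest the RefSeq start, with the last marked motif, are thus within the gene by GENCODE.
Ncl, chr1:86359456-86359705, minus strand: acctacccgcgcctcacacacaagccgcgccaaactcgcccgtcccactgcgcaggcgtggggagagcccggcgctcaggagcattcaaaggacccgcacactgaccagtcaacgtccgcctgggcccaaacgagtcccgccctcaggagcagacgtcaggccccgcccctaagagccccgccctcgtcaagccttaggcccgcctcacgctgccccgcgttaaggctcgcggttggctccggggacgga
Dkc1, chrX:75095604-75095853, plus strand: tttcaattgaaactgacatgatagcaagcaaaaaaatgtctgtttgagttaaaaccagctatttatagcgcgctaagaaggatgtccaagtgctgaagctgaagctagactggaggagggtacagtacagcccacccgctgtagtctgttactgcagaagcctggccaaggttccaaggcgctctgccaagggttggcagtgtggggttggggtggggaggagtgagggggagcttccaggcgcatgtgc
Nolc1, chr19:46075597-46075846, plus strand: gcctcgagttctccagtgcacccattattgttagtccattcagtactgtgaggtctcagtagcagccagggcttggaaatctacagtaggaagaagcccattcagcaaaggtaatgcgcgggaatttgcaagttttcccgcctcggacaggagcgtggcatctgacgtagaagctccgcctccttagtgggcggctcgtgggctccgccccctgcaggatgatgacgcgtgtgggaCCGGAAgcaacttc
Utp15, chr13:98262993-98263242, minus strand: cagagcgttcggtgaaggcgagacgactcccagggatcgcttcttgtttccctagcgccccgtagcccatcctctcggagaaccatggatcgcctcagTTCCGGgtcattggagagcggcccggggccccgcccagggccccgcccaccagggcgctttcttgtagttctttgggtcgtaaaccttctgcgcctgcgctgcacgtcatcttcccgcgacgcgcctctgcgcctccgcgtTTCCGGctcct
Rrn3, chr16:13780449-13780698, plus strand: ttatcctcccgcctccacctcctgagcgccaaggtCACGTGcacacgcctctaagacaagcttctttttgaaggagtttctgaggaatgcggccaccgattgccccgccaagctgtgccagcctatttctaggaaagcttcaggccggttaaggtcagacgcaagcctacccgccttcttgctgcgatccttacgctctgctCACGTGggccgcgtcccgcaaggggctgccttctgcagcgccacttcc
Nop2, chr6:125131633-125131882, plus strand: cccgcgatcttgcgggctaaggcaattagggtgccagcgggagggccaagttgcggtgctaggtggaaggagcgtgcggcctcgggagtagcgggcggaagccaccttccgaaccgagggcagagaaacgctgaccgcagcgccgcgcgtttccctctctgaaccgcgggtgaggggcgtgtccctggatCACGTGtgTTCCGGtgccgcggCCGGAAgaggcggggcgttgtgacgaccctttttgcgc

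The motifs were CACGTG, the E-box bound by MYC-MAX dimers, TGTGGT, the core bound by RUNX factors, and CCGGAA, a core bound by ETS factors. RefSeq promoters were matched by symbol for 40 of the 45 members. In the window of 300 bases from 250 before to 50 after the start, 9 of 40 member promoters (22.5%) held CACGTG, against 7.24% of the 27018 genes with a promoter. CCGGAA was in 17 of 40 (42.5%), against 15.2%, and TGTGGT in 4 of 40 (10%), against 16.9%. Without the 50 bases after the start, CACGTG was in 3 of 40 (7.5%), close to the 6.05% of all genes, while CCGGAA was in 14 of 40 (35%), against 12.2%. Of the 9 lower members with a promoter, 1 held CACGTG, 1 held TGTGGT and 5 held CCGGAA in the longer window. Of the 31 others, 8 held CACGTG, 3 held TGTGGT and 12 held CCGGAA. For 5 members (Polr1d, Ubtf, Wdr43, Heatr1 and Rrp9) the RefSeq start lay over 150 bases from the GENCODE start of the gene. These shares describe sequence only, and no binding was measured.

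Depth was similar, with deposited totals of 14693080 to 16433454 reads per AML1/ETO library and 16374232 to 17527043 per control. Runx1t1, the fusion partner, stood at 94.0 ± 35.9 CPM (SD, n = 3) in AML1/ETO and 3.77 ± 2.72 CPM (n = 5) in control libraries. The first principal component (44.0% of variance) separated the groups, and along the second (14.3%) the first library of each genotype lay far from the remaining 6. The AML1/ETO libraries held 1969 to 2165 CPM of Xist and no read of the Y-linked Ddx3y, while the controls held at most 6.50 CPM of Xist and 215 to 289 CPM of Ddx3y, so a sex difference and the genotype cannot be told apart. Among LSK markers, Kit was at 378 CPM or more in every library, but Ly6a, which encodes Sca-1, was at only 8.25 to 23.4 CPM in the controls against 220 to 919 CPM in AML1/ETO. In bulk samples, fewer cells of a type and less RNA per cell cannot be told apart.

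Transcripts of 12 of the 45 genes were lower in AML1/ETO LSK cells, and none was higher, at an adjusted p under 0.05 (edgeR quasi-likelihood test, two-sided, Benjamini-Hochberg adjustment over 15009 tested genes). The 12 were Polr1c, Fbl, Dkc1, Nhp2, Ncl, Npm1, Nolc1, Ddx21, Mybbp1a, Utp15, Heatr1 and Rrs1. Over all tested genes 25.7% were called, 14.2% as lower and 11.6% as higher, so the 26.7% of members that fell stood above the share of all genes. Among the 8165 genes whose control mean lay within the members' range of 14.5 to 1174 CPM, 21.5% fell and 15.0% rose, which is closer to the members' share of lower genes. The fitted log2 fold change was below 0 for 35 of 45 members (77.8%), against 53.8% of all tested genes. Its median was −0.44 in the members, −0.094 in all tested genes and −0.17 in the 8165 genes within the members' CPM range. The members ranged from −1.25 (Heatr1) to 0.54 (Wdr12).

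Most of the decreases were modest. Heatr1, Utp15 and Dkc1 fell by 2-fold or more and the other 9 by less. In each of the 12, every AML1/ETO library lay below every control library. That was also so for Rrn3 and Tsr1, which did not pass the test, making 14 of 45 members against 17.5% of all tested genes. Ubtf was the 1 member with every AML1/ETO library above every control, against 14.1% of all tested genes. At an unadjusted p under 0.05, 18 members were lower and 1 (Ubtf) was higher. DESeq2 called the same 12 lower and 1, Ubtf, higher. For 23 of the 33 members that did not pass, the 95% interval excluded a 2-fold change in either direction, and for 10 it did not. Without the first library of each group, 13 members fell and 1 (Wdr12) rose.

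**Figure D1:**
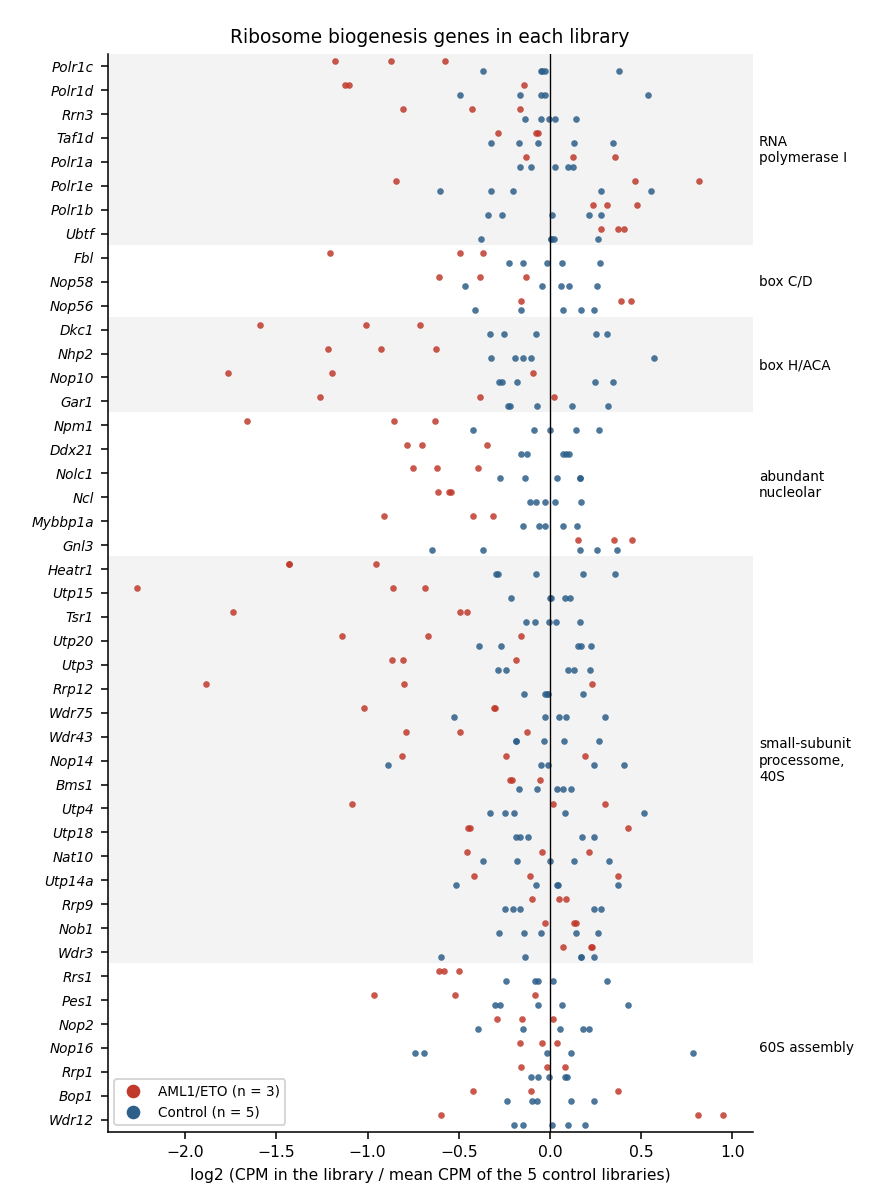
Log2 ratio of each library's CPM to the mean of the 5 control libraries, for the 45 genes in rows grouped by role. Red points are the 3 AML1/ETO libraries and blue points the 5 controls. Red lies wholly to the left of blue for 14 genes and wholly to the right for Ubtf.

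The RNA polymerase I genes went in both directions. Of 8 members 1, Polr1c, fell, against 14.2% of all tested genes. Of the 8 fitted log2 fold changes 4 lay below 0 and 4 above, with a median of −0.00. Polr1a moved below 0, to −0.02, when library totals set the scale. Polr1c encodes an assembly subunit that RNA polymerases I and III share (chromosome 17, 46243920 to 46248054, minus strand). Its level was 46.8, 30.8 and 38.1 CPM in AML1/ETO libraries 1 to 3 and 90.7, 68.5, 67.4, 67.6 and 54.1 CPM in control libraries 1 to 5. All 3 AML1/ETO values were below the lowest control, a fold change of −0.85 ± 0.22 (SE), adjusted p = 0.0158. Leaving out AML1/ETO library 2 raised the adjusted p to 0.0559. Its partner in that assembly platform, Polr1d, stood at 31.4, 31.9 and 62.0 CPM in AML1/ETO and 48.6, 61.1, 99.6, 66.1 and 67.3 CPM in control libraries. AML1/ETO library 3 lay among the controls, and the change (−0.71 ± 0.30 (SE), adjusted p = 0.0973) passed only when that library was left out (adjusted p = 0.0178) or when library totals alone set the scale (adjusted p = 0.0497).

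The catalytic subunits did not follow Polr1c. Polr1a, the largest subunit, was at 85.1, 71.2 and 100 CPM in AML1/ETO and 79.7, 69.6, 85.1, 72.6 and 83.7 CPM in control libraries, with a log2 fold change of 0.13 (95% interval −0.24 to 0.51). Polr1b, the other catalytic subunit, was at 54.0, 63.7 and 56.8 CPM and 46.1, 36.2, 53.1, 38.2 and 55.6 CPM, with a log2 fold change of 0.34 (−0.11 to 0.80). Both groups overlapped for both genes. Polr1e, a subunit that works with the polymerase at initiation, had the lowest control mean of the members, 14.5 CPM, and was at 8.09 to 25.5 CPM in AML1/ETO and 9.54 to 21.3 CPM in control libraries.

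The initiation factors went in different directions without passing the test. Ubtf, the architectural factor that keeps ribosomal DNA open, was at 243, 265 and 259 CPM in AML1/ETO and 201, 203, 240, 201 and 154 CPM in control libraries. Every AML1/ETO value exceeded the highest control, but the narrow gap gave 0.36 ± 0.16 (SE), adjusted p = 0.120 by edgeR and 0.0368 by DESeq2. Rrn3, which links the polymerase to the promoter-bound factors, was at 29.3, 45.7 and 38.0 CPM and 46.5, 52.2, 51.1, 49.5 and 56.6 CPM. AML1/ETO library 2 lay just under the lowest control, and the change was −0.44 ± 0.21 (SE), adjusted p = 0.141. Taf1d, part of the promoter selectivity factor, overlapped between groups (log2 fold change −0.14); its locus holds 8 snoRNA genes and it overlaps 2 coding genes on the other strand.

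The box C/D core proteins divided, with 1 of 3 lower, against 14.2% of all tested genes, and a median of −0.36. Fibrillarin (Fbl), the methyltransferase (chromosome 7, 28169710 to 28179269, plus strand), was at 108, 177 and 193 CPM in AML1/ETO and 261, 213, 301, 225 and 246 CPM in control libraries. The AML1/ETO values were all lower, and library 1 was the lowest of the 8, giving −0.64 ± 0.20 (SE), adjusted p = 0.0382. This call was lost when AML1/ETO library 1 or any single control library was left out (adjusted p from 0.0598 to 0.100). Nop58 was at 212, 178 and 152 CPM and 168, 225, 277, 249 and 242 CPM, with control library 1 inside the AML1/ETO range (log2 fold change −0.36 ± 0.19 (SE), adjusted p = 0.177). Nop56, its structural partner on the snoRNA, was at 237, 156 and 228 CPM and 206, 156, 196, 131 and 183 CPM, with a log2 fold change of 0.25 (−0.18 to 0.67). Nop56 and Nop58 hold 5 and 4 snoRNA genes in their loci.

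The box H/ACA core proteins were all below 0 in log2 fold change, with a median of −0.87. Of the 4, 2 fell, against 14.2% of all tested genes. Dkc1, the pseudouridine synthase dyskerin, which is also part of telomerase (chromosome X, 75095854 to 75109777, plus strand), was at 43.8, 65.7 and 80.5 CPM in AML1/ETO and 111, 125, 157, 105 and 164 CPM in control libraries. The highest AML1/ETO library was below the lowest control, and the decrease was 2.09-fold (−1.06 ± 0.24 (SE), adjusted p = 0.00645). It remained called with any 1 library left out. Dkc1 lies on X, where the sex-linked pattern of the libraries and the genotype cannot be told apart; Utp14a, the other X-linked member, had a log2 fold change of −0.01.

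Nhp2, an RNA-binding core protein (chromosome 11, 51619735 to 51623714, plus strand), was at 41.0, 50.6 and 33.6 CPM in AML1/ETO and 62.3, 68.2, 116, 72.5 and 70.5 CPM in control libraries. The AML1/ETO values were again all lower, and control library 3 stood well above the other controls. Nhp2 fell 1.87-fold (−0.90 ± 0.25 (SE) on the log2 scale, adjusted p = 0.0191). However, leaving out AML1/ETO library 3 raised the adjusted p to 0.0718. Nop10, the smallest core protein, was at 9.37, 29.8 and 13.9 CPM and 26.2, 26.5, 40.4, 28.1 and 37.8 CPM. AML1/ETO library 2 was among the controls, and the change (−0.84 ± 0.38 (SE), adjusted p = 0.122) passed only without that library (adjusted p = 0.0113). Gar1, which helps release the modified RNA, had a log2 fold change of −0.45 (−1.04 to 0.14) with overlapping groups.

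Of the 6 abundant nucleolar proteins 5 fell, against 14.2% of all tested genes, the largest share called of any role. Their median was −0.58, a smaller shift than that of the box H/ACA proteins. The role includes the snoRNP chaperone Nolc1 and was not set by transcript level. In controls Nolc1 (155 CPM) and Gnl3 (117 CPM) lay under Rrp1 (263 CPM) and Fbl (249 CPM) of other roles. Nucleolin (Ncl), which binds the precursor and ribosomal DNA chromatin (chromosome 1, 86344719 to 86359400, minus strand), was at 768, 799 and 806 CPM in AML1/ETO and 1114, 1197, 1322, 1088 and 1152 CPM in control libraries. The AML1/ETO libraries lay within a coefficient of variation of 2.57%, the smallest of any member in that group, and well under the controls. Nucleolin fell 1.48-fold (−0.57 ± 0.12 (SE), adjusted p = 0.00537). Nucleophosmin (Npm1), a histone chaperone that gives the outer nucleolus its structure (chromosome 11, 33152287 to 33163206, minus strand), was at 261, 533 and 456 CPM and 616, 824, 992, 776 and 910 CPM. All AML1/ETO values were below the lowest control, and library 1 was lowest by a wide margin, giving a 1.98-fold decrease (−0.98 ± 0.23 (SE), adjusted p = 0.00869). Both calls held with any 1 library left out. Npm1 has 8 pseudogenes of at least 90% identity over at least 300 bases, which held reads equal to 4.68% to 6.42% of its own. How reads matching both were counted is not given, so the size of any error in the Npm1 counts is not known.

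Ddx21, an RNA helicase that acts on the precursor and at polymerase I and II genes (chromosome 10, 62580251 to 62602281, minus strand), was at 308, 241 and 228 CPM in AML1/ETO and 359, 416, 412, 351 and 422 CPM in control libraries (−0.60 ± 0.15 (SE), adjusted p = 0.0132). Nolc1, the chaperone that carries snoRNPs (chromosome 19, 46075863 to 46085530, plus strand), was at 118, 101 and 92.0 CPM and 141, 159, 174, 128 and 174 CPM (−0.58 ± 0.17 (SE), adjusted p = 0.0244). Mybbp1a, which takes part in precursor processing (chromosome 11, 72441355 to 72451768, plus strand), was at 193, 291 and 270 CPM and 401, 380, 347, 327 and 355 CPM (−0.53 ± 0.16 (SE), adjusted p = 0.0336). The AML1/ETO libraries were all lower for the 3 genes, though the gap was small for each. Ddx21 lost its call without AML1/ETO library 3 (adjusted p = 0.0552), and Nolc1 without AML1/ETO library 2 or 3 or control library 2, 3 or 5 (0.0607 to 0.0891). Mybbp1a lost its call without AML1/ETO library 1 or 3 or any control library (0.0529 to 0.0949).

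Nucleostemin (Gnl3), a GTPase of proliferating stem cells, was the exception among the nucleolar proteins. Its level was 160, 149 and 130 CPM in AML1/ETO and 131, 90.6, 151, 74.6 and 140 CPM in control libraries. The groups overlapped, the controls alone spanned 74.6 to 151 CPM, and the log2 fold change was 0.32 (−0.18 to 0.82, adjusted p = 0.350).

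**Figure D2:**
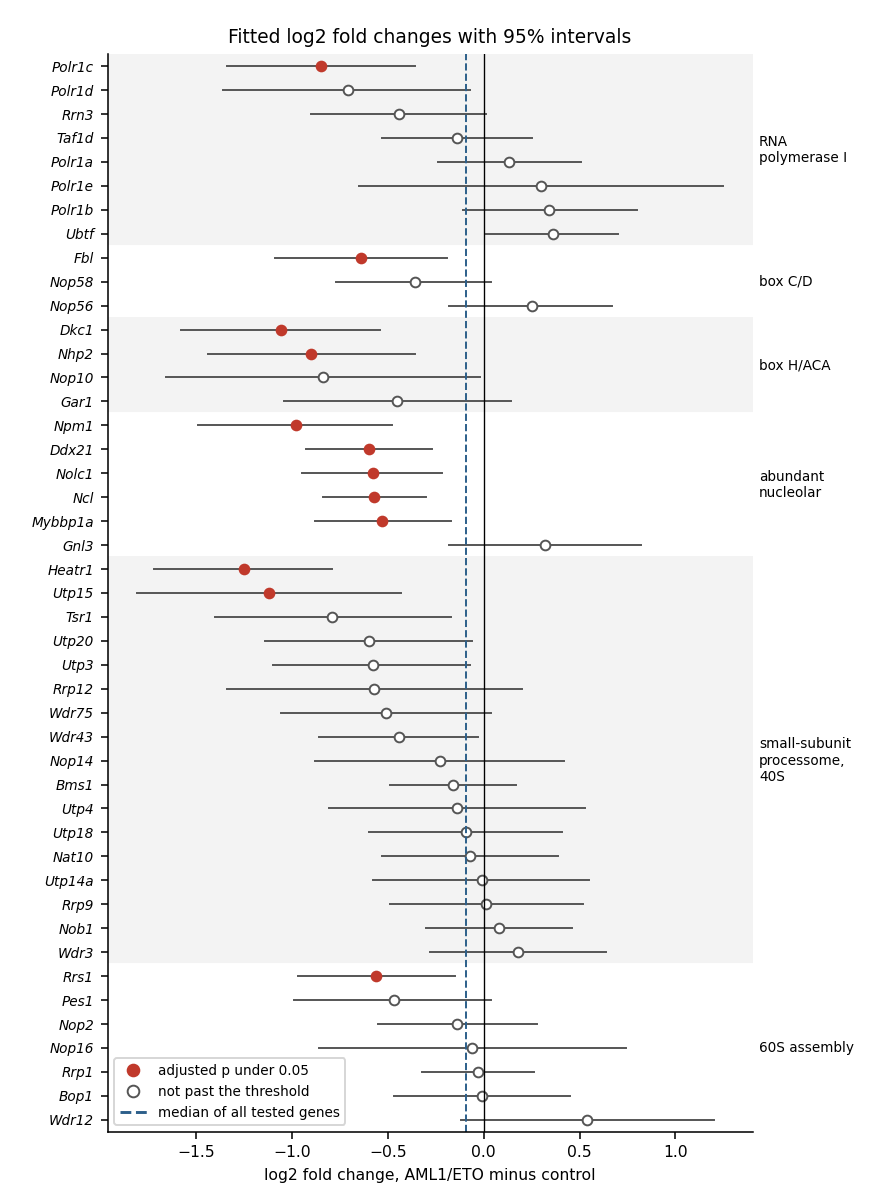
Fitted log2 fold change of each of the 45 genes (AML1/ETO minus control, edgeR) with its 95% interval, grouped by role. Filled points passed an adjusted p of 0.05. The filled points all lie left of 0, and 5 of the 12 are in the abundant nucleolar role. The dashed line is the median of all tested genes (−0.094).

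In the small-subunit processome, 2 of 17 members fell, and the median was −0.23. Of all tested genes 14.2% fell, and of those within the members' CPM range 21.5%, so this count does not stand above either share. Heatr1, a scaffold of the UtpA subcomplex that is also needed for precursor transcription (chromosome 13, 12395027 to 12440289, plus strand), was at 52.0, 52.0 and 72.4 CPM in AML1/ETO and 114, 159, 133, 115 and 179 CPM in control libraries. All 3 AML1/ETO values were far below the lowest control, and the 2.38-fold decrease (−1.25 ± 0.21 (SE), adjusted p = 0.00120) was the greatest of the 45 genes. Heatr1 was the 1 member called in all 19 alternative analyses. Lgals8, the coding gene whose exons overlap it on the other strand, rose (log2 fold change 0.70, adjusted p = 0.0236), and no source used here says whether the counting used strand.

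Utp15, another UtpA subunit (chromosome 13, 98246845 to 98263041, minus strand), was at 38.6, 34.2 and 12.9 CPM in AML1/ETO and 66.9, 62.3, 65.6, 62.0 and 53.5 CPM in control libraries. AML1/ETO library 3 was far below the other AML1/ETO libraries, while the controls were tight. Utp15 fell 2.17-fold (−1.12 ± 0.32 (SE), adjusted p = 0.0218), and the adjusted p was 0.0514 without control library 2 and 0.0522 without control library 3. The 3 other UtpA subunits among the members did not pass: Wdr43 had a log2 fold change of −0.44, Wdr75 of −0.51 and Utp4 of −0.14.

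Tsr1, a factor of late cytoplasmic 40S maturation, was at 43.2, 18.2 and 44.3 CPM in AML1/ETO and 57.4, 68.1, 62.2, 60.4 and 55.5 CPM in control libraries. The AML1/ETO values were all lower, with library 2 lowest, and the change did not pass (−0.79 ± 0.28 (SE), adjusted p = 0.0590). Leaving out AML1/ETO library 1 or 3 brought it past the threshold (0.0407 and 0.0463). Rrp12, a factor of pre-ribosome export, ran from 26.0 to 113 CPM in AML1/ETO against 87.3 to 109 CPM in controls. AML1/ETO library 1 was above every control and the other two below, and without library 1 Rrp12 fell (log2 fold change −1.25, adjusted p = 0.00510, against −0.57 and 0.274 with all libraries). Utp20 (log2 fold change −0.60) likewise passed without AML1/ETO library 1 (0.0167), and Utp3 (−0.58) and Wdr43 passed without AML1/ETO library 3 (0.0329 and 0.0463).

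The 8 remaining small-subunit factors lay between −0.23 and 0.18 in log2 fold change, and all overlapped between groups. They were Utp14a, given above, Bms1, the GTPase of the processome (−0.16), the processome proteins Nop14 (−0.23), Utp18 (−0.09) and Wdr3 (0.18), Rrp9, a protein of the U3 snoRNP (0.01), Nob1, the nuclease that makes the mature end of 18S rRNA (0.08), and Nat10, the acetyltransferase of 18S rRNA (−0.07). For Bms1 the 95% interval (−0.49 to 0.17) was among the narrowest.

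Among the 60S assembly factors 1 of 7 fell, against 14.2% of all tested genes, and the median was −0.06. Rrs1, which helps place the 5S particle in the pre-60S subunit (chromosome 1, 9545408 to 9547455, plus strand), was at 47.2, 44.5 and 43.7 CPM in AML1/ETO and 56.3, 62.8, 82.8, 63.7 and 67.3 CPM in control libraries. The AML1/ETO values were close together and all lower, but the adjusted p was near the threshold (−0.56 ± 0.19 (SE), adjusted p = 0.0474). It was lost without any of the 3 AML1/ETO libraries (0.0606 to 0.113) or without control library 2, 3, 4 or 5 (0.0932 to 0.128).

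The PeBoW complex, which Pes1, Bop1 and Wdr12 form to process the 60S precursor, did not move as a unit. Pes1 was at 76.6, 56.3 and 104 CPM in AML1/ETO and 105, 90.9, 115, 89.2 and 148 CPM in control libraries (−0.47 ± 0.24 (SE), adjusted p = 0.163). Bop1 was at 65.5, 52.6 and 91.2 CPM and 83.2, 67.1, 76.2, 59.9 and 65.8 CPM, a log2 fold change of −0.01 (−0.47 to 0.45). Wdr12 was at 25.4, 74.2 and 67.3 CPM and 41.1, 34.6, 33.5, 38.7 and 43.9 CPM. AML1/ETO library 1 was under every control and libraries 2 and 3 above every control, so the fitted change of 0.54 ± 0.30 (SE), adjusted p = 0.224 rested on how that library was treated: without it Wdr12 rose (log2 fold change 0.88, adjusted p = 0.00845). Mroh1 and Carf, which overlap exons of Bop1 and Wdr12 on the other strand, both rose (log2 fold changes 1.47 and 1.58), and their part in these values was not tested. The methyltransferase Nop2, Nop16 and Rrp1 overlapped between groups, and for Rrp1 the interval of −0.32 to 0.26 was narrow.

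Over the 45 genes, summed expression reached 4749, 5012 and 5110 CPM with AML1/ETO and 6107, 6505, 7415, 6115 and 6886 CPM in the controls. The highest AML1/ETO sum was below the lowest control sum, and the ratio of group means was 0.750. Ncl and Npm1 carry much of the sum; the other 43 genes gave 3680 to 3848 CPM in AML1/ETO and 4251 to 5101 CPM in control libraries, still without overlap. By role the ratio was 0.993 for RNA polymerase I, 0.835 for box C/D, 0.558 for box H/ACA, 0.651 for the abundant nucleolar proteins, 0.776 for the small-subunit factors and 0.924 for the 60S factors. The sums overlapped between groups for RNA polymerase I and the 60S factors only; the box C/D sums overlapped too when scaled by DESeq2 size factors. The 79 ribosomal protein genes, by contrast, summed to 69829 ± 10974 CPM in AML1/ETO and 68321 ± 7045 CPM in control libraries.

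**Figure D3:**
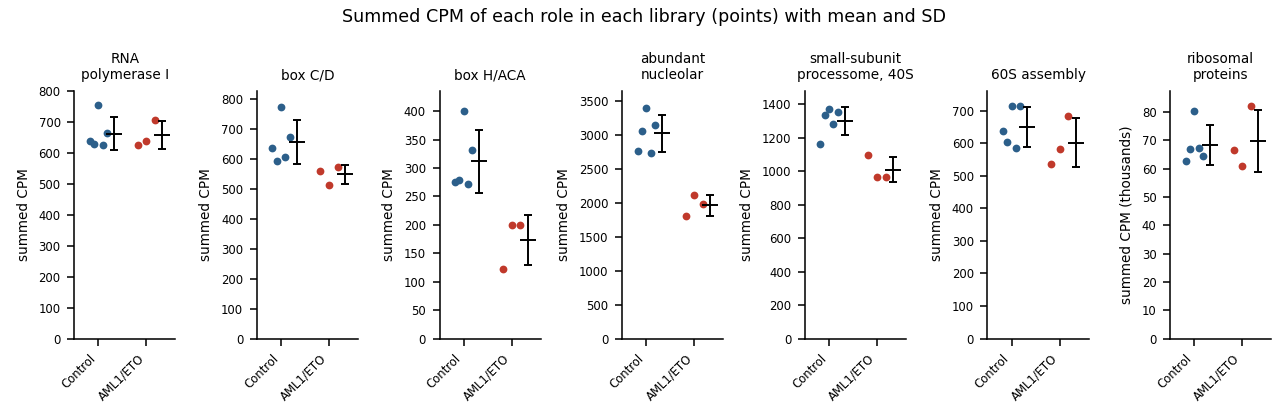
Summed CPM of the genes of each role in each library (points; blue controls, red AML1/ETO), with the group mean and SD as bars; each panel has its own axis from 0, and the last axis is scaled by 1000. The H/ACA and nucleolar sums separate clearly, and the RNA polymerase I, 60S assembly and ribosomal protein sums overlap.

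Levels between genes were compared per kilobase of transcript. In controls Npm1 was highest at 701 RPKM (CPM per kilobase), followed by Fbl at 208 and Ncl at 143, and Polr1a (8.48) and Polr1e (8.42) were lowest. This order depends on the annotated length, which was 1.17 kb for Npm1, 1.2 kb for Fbl and 8.2 kb for Ncl. Which transcripts these cells use was not measured. By CPM alone Ncl was the highest member in controls (1174 CPM). The 2 highest members by RPKM were among those that fell, to 355 RPKM for Npm1 and 133 for Fbl in AML1/ETO. Rrp1, the fourth in that order (133 RPKM), was at 130 RPKM in AML1/ETO.

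Other genes of the pathway, in 6 lists of 127 tested genes, had a similar share of decreases: 34 fell (26.8%), 6 rose, and the median log2 fold change was −0.46. Of all tested genes 14.2% fell and 11.6% rose. Within the members' CPM range 21.5% fell and 15.0% rose. Among other small-subunit factors 14 of 40 fell and 1 rose. Ddx52 (47.5 ± 6.25 against 92.9 ± 5.04 CPM), Nol6 (79.8 ± 4.92 against 134 ± 6.78 CPM) and Mphosph10 (16.6 ± 6.47 against 48.5 ± 11.4 CPM) fell. Among other 60S factors 15 of 49 fell and 3 rose: Nip7 fell (log2 fold change −1.95), while Ppan (239 ± 71.5 against 98.5 ± 11.6 CPM) and Nle1 (81.7 ± 14.3 against 35.8 ± 4.87 CPM) rose by 1.28 and 1.19 on the log2 scale. In the nuclear exosome, which trims precursors, 3 of 13 fell, namely Skiv2l2 (−1.17), Exosc9 (−1.27) and Mphosph6 (−1.06). Mphosph6 lost its call without AML1/ETO library 1 or 3 or control library 2, 3, 4 or 5 (adjusted p from 0.0779 to 0.113).

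Polymerase I itself was again mixed outside the 45 genes. Beside the counts that follow, 14.2% of all tested genes fell and 11.6% rose. Of 8 other subunits and factors, Tbp (−0.97) and the subunit gene Twistnb (−0.94) fell, and 2 rose, among them the promoter factor Taf1c (0.90), which did not pass without AML1/ETO library 1 or 3 or control library 3 or 4 (adjusted p from 0.0549 to 0.0792). None of the 5 subunits shared by the 3 polymerases and none of the 12 other snoRNP assembly factors passed. RNA polymerase III had 2 of 22 higher, Brf1 (1.22) and Polr3gl (1.83), and 3 lower, of which Gtf3c4 (−1.77) had the smallest p. Of the 79 ribosomal protein genes, 2 rose, among them Rps9 (0.51), and 1 fell (Rpl15, −0.43), with a median of 0.06. Rps9 did not pass without AML1/ETO library 3 (0.140), and Rpl15 passed with only 1 of the 8 libraries left out in turn, AML1/ETO library 2 (0.0607 to 0.115 otherwise). Of 7 regulators of ribosomal DNA, Sirt7 rose (0.70) and Suv39h1 (−0.89) and Kdm2b (−0.66) fell. Sirt7 lost its call without AML1/ETO library 2 or 3 or control library 1, 2, 3 or 4 (0.0583 to 0.131), and Kdm2b without AML1/ETO library 3 or control library 1, 2 or 5 (0.0518 to 0.0790).

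**Figure D4:**
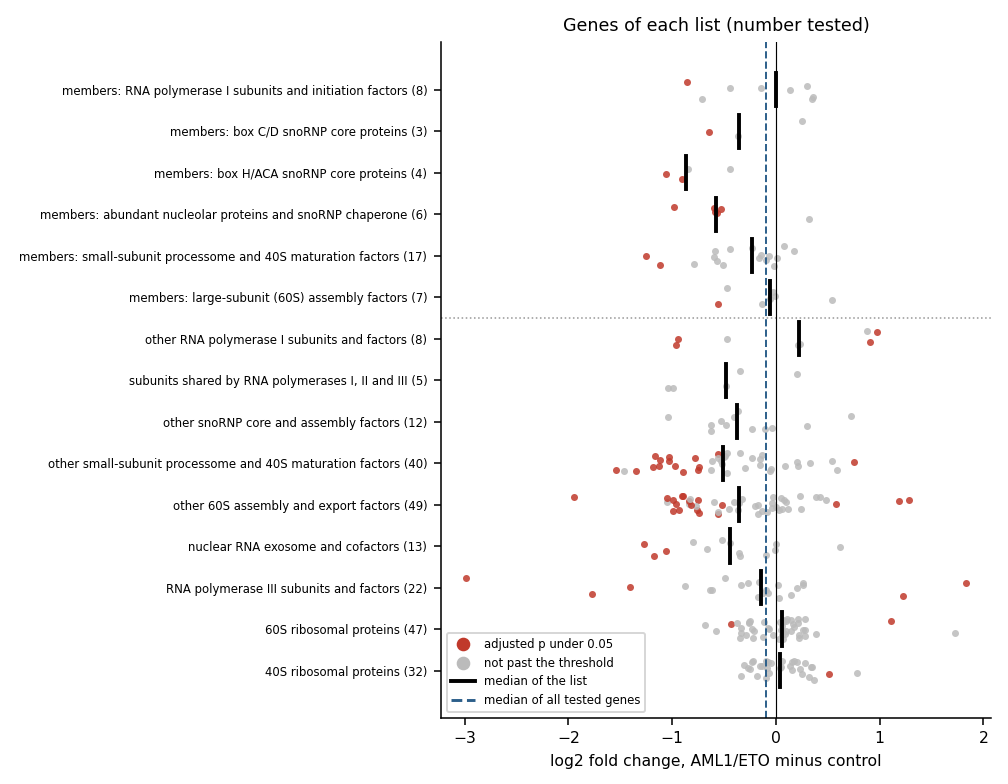
Log2 fold change (AML1/ETO minus control) of every tested gene in the 6 member roles (above the dotted line) and 9 other lists of the pathway (below it). Red points passed an adjusted p of 0.05, black bars are list medians and the dashed line is the median of all tested genes; ribosomal proteins centre near 0 while the other small-subunit, 60S and exosome lists centre below it.

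The MYC family activates many ribosome biogenesis genes through E-boxes. Of its 11 network genes Myc did not pass (87.8 ± 27.7 against 54.7 ± 16.8 CPM, log2 fold change 0.68, adjusted p = 0.0978). Mxd1, a MAX partner that represses E-box genes, rose from 73.9 ± 13.2 to 666 ± 133 CPM (3.17), and Mga rose (0.91). Mycn was without reads in the 3 AML1/ETO libraries and at 14.0 ± 4.18 CPM in controls, at least 208-fold lower against a floor of 3 reads summed across them. Max was 111 ± 2.82 against 113 ± 12.5 CPM. The part of these genes in the members' values was not tested.

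Proliferation genes and markers of other cells moved with the genotype. The shares of all tested genes were 14.2% lower and 11.6% higher. Of 18 replication and mitosis genes 15 fell and none rose, with a median log2 fold change of −1.58 and a summed level of 1127 to 1986 CPM in AML1/ETO against 3372 to 3894 CPM in control libraries; Rrm1, Mki67 and Mcm7 had the smallest p-values. Of 7 tested mast cell and basophil markers 5 rose and 1 fell, and their summed level was 2500 to 6785 CPM against 33.8 to 87.4 CPM. Cpa3 made up most of it, while Mcpt4 and Tpsab1 were at 0 in AML1/ETO libraries 2 and 3 and Prss34 in all 3. Neutrophil markers (4 of 8 fell; 172 to 1059 against 1154 to 2981 CPM), macrophage markers (3 of 8 fell; 34.4 to 54.9 against 140 to 248 CPM) and B cell markers (4 of 6 fell; 5.29 to 10.8 against 76.3 to 222 CPM) were lower, with Ly6g and Ms4a1 at 0 in every library. Of the T and NK cell markers, Cd3e, Cd3d, Cd3g and Cd8a were at 0 in every library and 1 of 2 tested fell (5.21 to 9.29 against 60.9 to 116 CPM), and 1 of 6 erythroid markers rose (15.3 to 71.0 against 2.98 to 41.5 CPM). Of 12 LSK markers 10 rose and 1 fell (4148 to 5645 against 1852 to 2211 CPM). The part of cell composition and of proliferation in the lower level of the 12 genes was not tested.

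Read sharing touched part of the set. Exons of 17 members overlap a gene on the other strand, 4 of them among the 12 lower genes (Dkc1, Nhp2, Mybbp1a and Heatr1). The coding partners Mpp1 (of Dkc1), Rmnd5b (of Nhp2) and Spns2 (of Mybbp1a) did not pass the test, with log2 fold changes of 0.33, −0.63 and 0.33. A pseudogene of Dkc1 held reads equal to 8.29% of the gene's in AML1/ETO library 1 and none in the other 7. Members with pseudogenes as close as those of Npm1 numbered 14, and 8 members host snoRNA genes, Ncl and Dkc1 among those that fell.

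**Figure D5:**
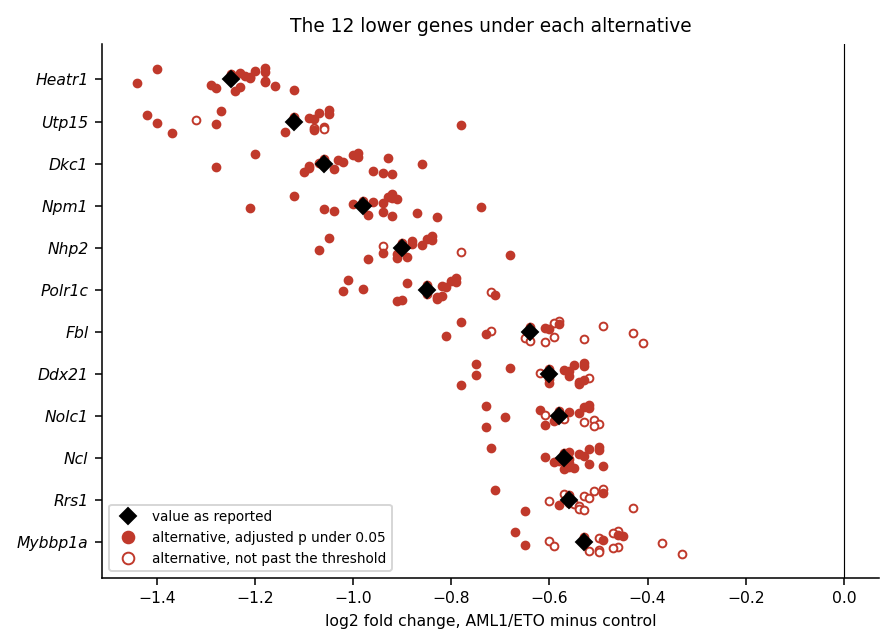
Log2 fold change (AML1/ETO minus control) of the 12 lower genes as reported (diamonds) and under each alternative analysis (circles; filled where the adjusted p was under 0.05). All values lie below 0. Heatr1, Dkc1, Npm1 and Ncl keep filled circles under nearly all alternatives, and Fbl, Rrs1 and Mybbp1a have mostly open ones.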

How the data were processed

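The authors deposited 1 table of read counts per gene identifier (whole numbers, not normalized) for 8 mRNA libraries. Reads were aligned to mm10 with HISAT2 2.0.5 and counted with featureCounts 1.5.0-p3, per the submitters' processing notes; which annotation was counted, whether by strand, and how multiply matching reads were treated was not given in the sources used here. Column names carry the group and replicate of each sample's title. Loci are from GENCODE M21 (mm10), which matched 54495 of 54532 identifiers.

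Counts were filtered with filterByExpr, scaled by TMM and tested with edgeR 4.0.16 (R 4.3.3; glmQLFit and glmQLFTest, all 8 libraries, no covariate), two-sided, with Benjamini-Hochberg adjustment over 15009 genes at 0.05. CPM are edgeR's counts scaled to a common library size with TMM factors, and RPKM divide them by the median length of a gene's coding transcripts. The common biological coefficient of variation over all tested genes was 72.6%; the members' coefficients of variation in CPM had medians of 17.3% in control and 21.7% in AML1/ETO libraries. Alternatives used DESeq2 1.42.0, limma 3.58.1, other scalings, filters and a minimum fold, left out libraries, and took the replicate number as a block. Per-library values are given for fixed genes of each role, for the 3 members of each role with the smallest p and for every member that fell, and up to 3 genes with the smallest p are named from each other list; the partners on the other strand, the RefSeq starts and further markers were named after their values were seen. Members and lists were chosen with earlier results of these data known. Lists are described by counts and medians, with no test of a list.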

Additional observations from a re-analysis of the deposited data

Results flagged for a closer look

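Control library 3 stood apart from the other 4 controls in 3 of the 53 sets of control values examined, by the size of its gap relative to the whole range of the 5 (above Dixon's critical value of 0.71). Nhp2 was at 116 CPM there and at 62.3 to 72.5 CPM in the others. The summed level of the RNA polymerase I genes was 755 CPM there and 626 to 663 CPM in the others, and that of the ribosomal proteins was 80443 CPM there and 62567 to 67354 CPM in the others. Chance flags about 1 in 20 such sets. With control library 3 left out, 7 members fell, the same number as without control library 2.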

How the results depend on the processing

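Heatr1 was called under all 19 alternatives. Ncl, Npm1 and Dkc1 lost their call only when a minimum fold of 1.5 was tested, and Dkc1 was not in the fit without X and Y. Polr1c, Nhp2, Ddx21, Utp15 and Nolc1 were called in 17, 16, 16, 15 and 12 of 19, and Fbl, Mybbp1a and Rrs1 in 7, 6 and 5. The direction of all 12 was the same throughout. With library totals alone, 17 members fell, the median of all tested genes moved from −0.094 to −0.244, and 34.2% of calls were increases in place of 44.9%.

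Genes that fell numbered 2128 (1734 rose), 1072 (942) at a minimum fold of 1.5 and 1098 (951) with the replicate block. Replicate numbers did not pair the libraries (correlations of 0.0388, −0.0390 and 0.0271 between deviations of libraries with the same number). Numbers 4 and 5 occur in controls only, so with the block the contrast rests on libraries 1 to 3 of each group. Counts with the block therefore also reflect fewer libraries. Of the members, 12 fell, 1 at the minimum fold, 5 with the block and 7 to 12 with 1 library left out; 0 rose, but 1 by DESeq2 and without both first libraries, and 0 to 1 with 1 library left out. Of the other biogenesis genes 34 fell, 6 at the minimum fold, 15 with the block and 21 to 35 with 1 library left out; 6 rose, 2 by library totals, the minimum fold or the block and 3 to 6 with 1 library left out. Of ribosomal proteins 1 fell, 7 by library totals, 2 by DESeq2, 0 by DESeq2 size factors, upper-quartile scaling, limma-voom, the minimum fold, either filter, the block or without both first libraries, and 0 to 2 with 1 library left out; 2 rose, 1 by library totals, 5 by DESeq2, 0 at the minimum fold or with the block and 1 to 4 with 1 library left out. The summed ratio was 0.786 with DESeq2 size factors and 0.678 with library totals, and CACGTG was in 7.50% of member promoters without the bases after the start. The causes of these shifts were not tested.

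Members near 0 changed sign. In log2 fold change Bop1 became 0.05 by DESeq2 or its size factors, 0.04 by upper quartile, 0.03 by limma-voom or the 1 CPM filter, 0.02 without a filter and 0.09 without both first libraries (−0.26 to 0.15 with 1 library left out). Utp14a became 0.06 by DESeq2 or its size factors, 0.04 by upper quartile, 0.03 with the 1 CPM filter, 0.01 without a filter and 0.13 with the replicate block (−0.26 to 0.14). Nop16 became 0.01 by DESeq2 or its size factors, 0.08 by limma-voom and 0.17 with the block (−0.16 to 0.27), and Nop14 0.03 with the block. Rrp1 became 0.04 by DESeq2 or its size factors, 0.02 by upper quartile and 0.01 with the 1 CPM filter (−0.10 to 0.03). Library totals gave −0.07 for Nob1 (−0.02 without both first libraries), −0.02 for Polr1a and −0.13 for Rrp9. With 1 library left out, Polr1a ran from −0.01 to 0.24, Rrp9 from −0.03 to 0.13, Nat10 from −0.24 to 0.09, Polr1e from −0.06 to 0.64, Utp18 from −0.45 to 0.05 and Utp4 from −0.44 to 0.16. None of these members passed the test as reported.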
